A study of Mus musculus with 69 samples.

Results

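The 9 genes described here encode enzymes that add or remove acetyl groups on lysine 27 of histone H3 (H3K27ac) and bromodomain proteins that bind acetylated histones. They were chosen by symbol for their known function, with earlier results of these data known, and make up 9 of the 16263 genes in the mRNA-seq count table of mouse ESCs. The writers are Ep300 and Crebbp, the erasers are the class I deacetylases Hdac1, Hdac2, Hdac3 and Hdac8, and the readers are Brd2, Brd3 and Brd9. Brd2 and Brd3 belong to the BET family, whereas Brd9 does not and is a subunit of a SWI/SNF chromatin remodelling complex. All 9 genes passed the filter on low counts.

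WT J1 is an ESC line from the inner cell mass of a blastocyst of strain 129S4/SvJae. Mut18 and Mut43 are H3.3K27R mutant clones of it, in which H3f3a and H3f3b, the genes that encode the histone variant H3.3, were edited in turn with CRISPR-Cas9 so that lysine 27 became arginine, a residue that cannot be acetylated. The labels give no treatment, and the cells were grown on feeder cells and passaged without them before harvest. Each line gave 2 mRNA-seq and 2 ATAC-seq libraries, called biological replicates by the labels. WT (n = 2) was therefore compared with the mutants (n = 4), where n counts libraries. Each mutant line is 1 clone and WT is 1 line, so genotype and differences between lines cannot be told apart.

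Acetylation of H3K27 is a mark of active enhancers and promoters. In ESCs, p300 and CBP, the proteins made from Ep300 and Crebbp, place it with acetyl-CoA as the donor, and deacetylases remove it, mostly as the catalytic subunits of corepressor complexes such as Sin3, NuRD, CoREST and NCoR. BET proteins bind acetylated histone tails through a pair of bromodomains and are linked to the release of paused RNA polymerase II. The mutation takes the acetylated residue away from one histone variant and leaves the enzymes' other substrates in place, and the question asked here is whether the mRNA levels of this machinery differed between WT and mutant ESCs.

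The libraries held 14992756 to 15143998 counts, and 14061 genes were tested. Levels below are read counts scaled to library size (CPM) after TMM normalization, a scaling of library size that is robust to a few strongly changed genes, and log2 fold changes are mutant over WT from the quasi-likelihood test of edgeR, with p-values adjusted by Benjamini-Hochberg over all tested genes. The edited genes remained expressed: H3f3a had 697 and 726 CPM in WT and 560 to 634 CPM in the mutants (log2 fold change -0.23, adjusted p = 0.000160), and H3f3b had a log2 fold change of 0.03 (adjusted p = 0.637) for both clones together. By clone, H3f3b was at -0.07 in Mut18 (adjusted p = 0.210) and 0.12 in Mut43 (adjusted p = 0.0162). The clones passed a test of their difference in H3f3b (adjusted p = 0.0402). Counts per gene do not show the edited codon. ESC markers were high in every library, with summed levels of 3589 and 3727 CPM in WT and 4059 to 4283 CPM in the mutants. All 7 of them passed the test, 6 higher and Pou5f1 lower in the mutants (log2 fold change -0.27, adjusted p = 4.22e-06). Of 8 markers of feeder fibroblasts, 7 were tested and 6 were lower in the mutants, with summed levels of 191 and 274 CPM in WT and 128 to 169 CPM in the mutants, and Lum was at 0 in 3 libraries and at no more than 1.10 CPM in the others. In bulk RNA, fewer cells of a type and less RNA per cell cannot be told apart, and the part of feeder cells in the differences below was not tested. The WT library with more feeder signal, replicate 1, had the lower level of Hdac2, Hdac8, Brd3 and Brd9 of the 2 WT libraries. The same held for Ep300, Hdac1, Hdac3 and Brd2, whereas Crebbp was higher in replicate 1. The order of 2 libraries does not tell what part feeder cells had.

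Of the 9 genes, 4 passed the test between WT and the mutants at an adjusted p under 0.05, and all 4 were lower in the mutants. They were the deacetylase genes Hdac2 and Hdac8 and the reader genes Brd3 and Brd9. This share has to be read against the whole table, in which 48.0% of tested genes passed, 24.5% lower and 23.5% higher. None of the 9 genes was beyond 2-fold, as were 8.93% of tested genes. Their median log2 fold change was -0.10, against -0.00 over all tested genes, and the median size of change was 0.10, against 0.23. In 6 of the 9 genes every mutant library lay below both WT libraries, a pattern found in 30.4% of tested genes, and in 1, Brd2, every mutant library lay above both, as in 29.4% of tested genes. The 95% interval of the change lay within 1.5-fold for 8 of the 9 genes, all but Hdac8, and for 60.7% of tested genes.

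**Figure D1:**
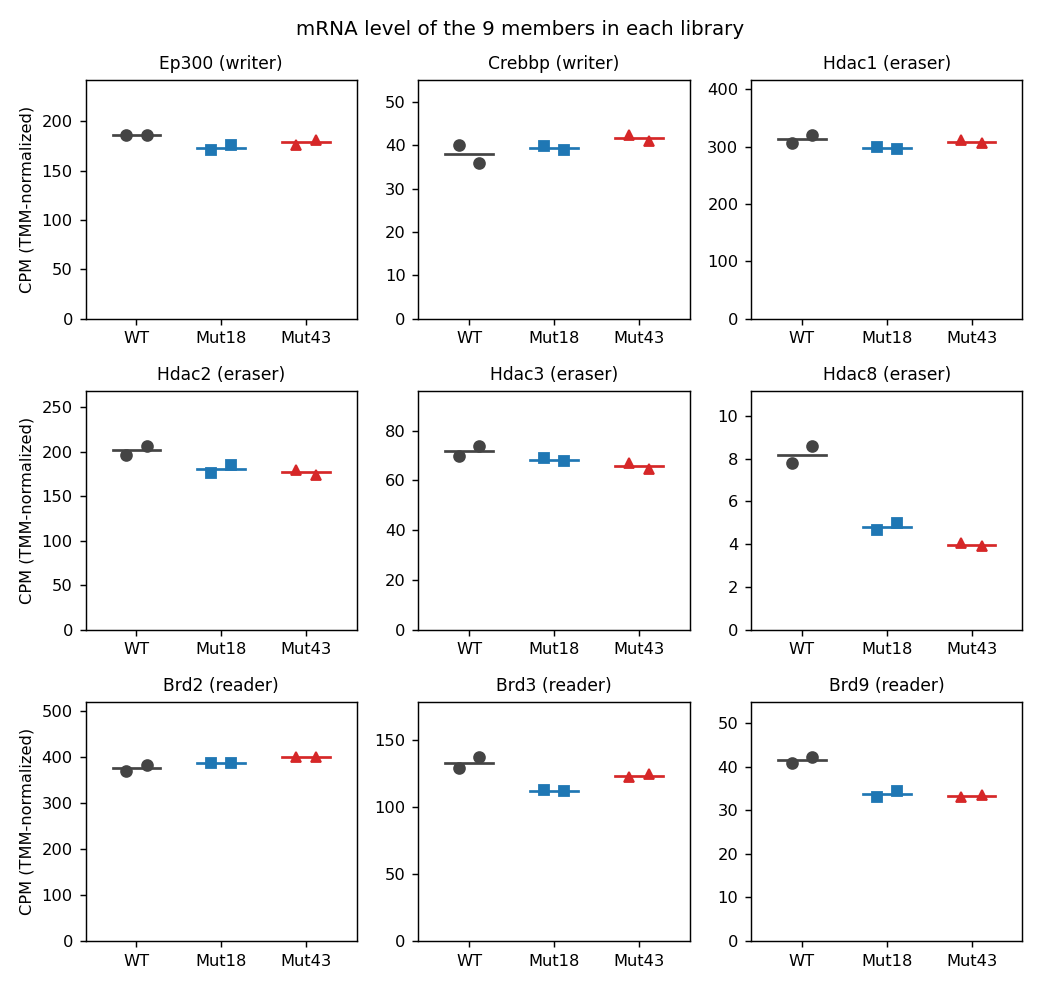
mRNA level of each of the 9 genes (CPM after TMM normalization, each axis from 0) in the 2 libraries of WT, Mut18 and Mut43. Points are libraries and bars are means of a line. The Hdac8 points of the mutants, 3.91 to 4.97 CPM, lie below the WT points of 7.78 and 8.59 CPM, and those of Brd9, Brd3 and Hdac2 also lie below WT by smaller fractions.

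The 4 genes that fell do not share 1 kind of promoter. The windows below run from 250 bases before to 50 bases after the start site in RefSeq, in build GRCm38.p6, 5′ to 3′ on the strand of the gene. The RefSeq promoter table held a window for 7 of the 9 genes (10 windows in all), and the 4 are printed because their mRNA changed. Capitals mark CpG dinucleotides, the sites that are dense in CpG islands.
Hdac8: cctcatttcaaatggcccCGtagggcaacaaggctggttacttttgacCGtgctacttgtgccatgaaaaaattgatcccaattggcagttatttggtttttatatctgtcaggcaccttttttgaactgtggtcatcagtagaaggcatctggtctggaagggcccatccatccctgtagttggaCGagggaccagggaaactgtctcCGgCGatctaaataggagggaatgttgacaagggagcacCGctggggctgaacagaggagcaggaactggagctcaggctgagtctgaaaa
Brd9: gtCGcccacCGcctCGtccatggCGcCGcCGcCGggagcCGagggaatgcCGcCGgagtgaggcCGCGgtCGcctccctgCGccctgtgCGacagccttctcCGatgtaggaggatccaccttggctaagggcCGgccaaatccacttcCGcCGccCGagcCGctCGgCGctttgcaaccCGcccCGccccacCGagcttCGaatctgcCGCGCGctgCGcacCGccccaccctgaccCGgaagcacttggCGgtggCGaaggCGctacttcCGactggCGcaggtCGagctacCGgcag
Brd3: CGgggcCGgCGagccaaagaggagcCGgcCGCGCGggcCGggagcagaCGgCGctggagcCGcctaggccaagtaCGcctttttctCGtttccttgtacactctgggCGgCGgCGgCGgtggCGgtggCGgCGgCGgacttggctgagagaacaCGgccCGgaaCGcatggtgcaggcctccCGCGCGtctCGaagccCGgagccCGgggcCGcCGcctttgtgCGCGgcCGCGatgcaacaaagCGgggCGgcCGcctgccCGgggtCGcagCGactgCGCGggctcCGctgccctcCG
Hdac2: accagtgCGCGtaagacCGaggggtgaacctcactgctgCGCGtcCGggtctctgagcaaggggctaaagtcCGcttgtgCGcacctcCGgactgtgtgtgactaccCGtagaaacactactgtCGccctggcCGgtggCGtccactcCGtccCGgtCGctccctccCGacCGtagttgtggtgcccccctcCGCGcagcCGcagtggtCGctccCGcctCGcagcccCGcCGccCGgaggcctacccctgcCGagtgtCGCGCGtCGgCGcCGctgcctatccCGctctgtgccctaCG
The Hdac8 window (chrX:102505109-102505408, minus strand) held 6 CpG, and 43.6% of the 32851 windows in the table held fewer. The Brd9 window (chr13:73937561-73937860, plus strand) held 40, the Brd3 window (chr2:27475349-27475648, minus strand) 46 and the Hdac2 window (chr10:36974294-36974593, plus strand) 36, more than 96.1%, 98.4% and 93.8% of windows. The Ep300 window held 30 CpG and the Crebbp window 49, so the Hdac8 window held fewer than those of the writers as well.

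Peaks of open chromatin over these windows differed too. An ATAC-seq peak, a stretch where the transposase Tn5 inserted more often than in the surroundings, overlapped the windows of Brd9, Brd3 and Hdac2 in all 6 libraries. The Hdac8 window was overlapped in 3 of 6 libraries, namely WT replicate 1, Mut18 replicate 2 and Mut43 replicate 1, so presence did not follow genotype. These libraries had the most peaks listed (78536, 69811 and 68631), beside 63588 to 67416 in the others. Whether presence depended on the number of peaks was not tested. Among all windows of tested genes, 69.8% carried a peak in all 6 libraries. The share was 20.9% for windows with at most 6 CpG and 72.2% for windows with at least 30. Both limits were taken from windows of the 9 genes. Windows between them were not counted apart, so these shares do not describe a steady trend with CpG. Windows with many CpG could lack a constant peak, since the Crebbp window with 49 CpG was overlapped in 1 of 6 libraries, and a Brd2 window with 32 CpG in 2 of 6. Crebbp regions at the edge of that window (4212967 to 4213371) and beyond it (4213957 to 4214560) were nevertheless listed in all 6 libraries. The sequence TATAAA (the core of the TATA motif), searched on both strands, occurred in 13.6% of all windows and once in that of Hdac8, on the opposite strand and 151 bases before the start site. The sequence GGGCGG (the binding motif of SP factors), likewise searched on both strands, occurred in 35.7% of windows, 4 times in that of Brd9 and not in that of Hdac8.

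The writers differed little. Ep300 (chromosome 15, 81585351 to 81652077 of GRCm38, plus strand), which encodes the acetyltransferase p300, had 186.0 and 186.3 CPM in WT, 171 and 176 CPM in Mut18 and 177 and 181 CPM in Mut43. Every mutant library lay below the WT pair, and the WT values were almost equal. The log2 fold change of -0.08 (SE 0.040, 95% interval -0.16 to 0.00) did not pass the test (adjusted p = 0.108).

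Crebbp (chromosome 16, 4081328 to 4213997, minus strand) encodes CBP, the paralog of p300. It had 40.1 and 36.1 CPM in WT, 39.9 and 39.0 CPM in Mut18 and 42.4 and 41.0 CPM in Mut43. The mutant values lay around the higher WT value, and the groups overlapped. Its log2 fold change was 0.09 (95% interval -0.05 to 0.23, adjusted p = 0.267). It was 0.17 without WT replicate 1 and 0.02 without WT replicate 2, and passed in neither case (adjusted p = 0.104 and 0.852).

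Per kilobase of exon, where levels of different genes can be compared, Ep300 stood above Crebbp in every library. The ratio of their RPKM was 4.40 and 4.90 in WT and 3.95 to 4.27 in the mutants, without overlap. Their summed level was 15.9 RPKM in WT and 15.3 RPKM in the mutants, or 0.967 of the WT level. These sums and ratios are descriptions and were not tested.

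Among the erasers, Hdac8 changed most of the 9 genes. Hdac8 (chromosome X, 102284639 to 102505359, minus strand) encodes a class I deacetylase that acts outside the large corepressor complexes and is best known for deacetylating the cohesin subunit SMC3. It had 7.78 and 8.59 CPM in WT, 4.65 and 4.97 CPM in Mut18 and 4.05 and 3.91 CPM in Mut43. Both clones lay far below WT and did not overlap with it, and Mut43 lay below Mut18. The log2 fold change was -0.89 (SE 0.14, 95% interval -1.20 to -0.59, adjusted p = 3.31e-05), a mean of 0.538 of the WT level, and 6.98% of tested genes fell more. The gene is a low one, with 120 and 132 counts in WT and 58 to 74 in the mutants, which sets the width of the interval.

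The fall of Hdac8 was present in each clone, at -0.77 in Mut18 (adjusted p = 0.000408) and -1.04 in Mut43 (adjusted p = 1.16e-05), comparisons that share the WT libraries. The clones themselves did not pass a test of their difference (log2 difference -0.27, 95% interval -0.64 to 0.10, adjusted p = 0.739). The median log2 fold change of the 508 tested genes on chromosome X was -0.14, and 15.9% of them lay below -0.8. Both values were more extreme than on any autosome. Autosomal medians ran from -0.08 (chromosome 1) to 0.39 (chromosome 11), and shares below -0.8 from 2.96% (chromosome 11) to 12.1% (chromosome 18). Whether the fall of Hdac8 is part of this shift of chromosome X was not tested. Phka1, a phosphorylase kinase gene that ends 8616 bp upstream of the Hdac8 start, rose in the mutants (log2 fold change 0.35, adjusted p = 0.00839). Cited1, 32458 bp beyond the 3′ end of Hdac8, had a log2 fold change of -0.58 (adjusted p = 0.0845), at no more than 2.14 CPM. Rps4x, a ribosomal protein gene 95245 bp beyond that end, had a log2 fold change of -0.00 (adjusted p = 0.995). Phka1, Cited1 and Rps4x were chosen after their values were seen.

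Hdac1 and Hdac2 encode close paralogs that sit together in Sin3, NuRD and CoREST. Hdac2 (chromosome 10, 36974544 to 37001889, plus strand) had 196 and 206 CPM in WT, 176 and 185 CPM in Mut18 and 180 and 174 CPM in Mut43. All mutant libraries were below WT, by little. The log2 fold change was -0.17 (SE 0.042, 95% interval -0.26 to -0.09, adjusted p = 0.00189), and without WT replicate 2 it was -0.13 and no longer passed (adjusted p = 0.0686). Hdac1 (chromosome 4, 129516104 to 129542713, minus strand) had 307 and 321 CPM in WT, 299 and 296 CPM in Mut18 and 312 and 306 CPM in Mut43. Its groups overlapped, with a log2 fold change of -0.05 (95% interval -0.13 to 0.03, adjusted p = 0.298).

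Hdac3, on chromosome 18, encodes the catalytic subunit of the NCoR and SMRT complexes. It had 69.6 and 73.8 CPM in WT, 68.9 and 67.6 CPM in Mut18 and 67.0 and 64.6 CPM in Mut43. The mutants lay below WT, although Mut18 replicate 1 was within 1 CPM of WT replicate 1. The log2 fold change of -0.10 (95% interval -0.20 to 0.01) did not pass the test (adjusted p = 0.110).

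Hdac1 supplied most of the deacetylase mRNA and Hdac8 very little of it. The 4 genes summed to 152 and 159 RPKM in WT and 144 to 148 RPKM in the mutants, or 0.935 of the WT mean. Hdac8 made up 1.09% of that sum in WT and 0.626% in the mutants. The ratio of Hdac1 to Hdac8 went from 53.9 in WT to 97.9 in the mutants, and that of Hdac1 to Hdac2 from 2.02 to 2.20.

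Of the readers, Brd3 and Brd9 were lower in the mutants and Brd2 did not pass the test. Brd2 (chromosome 17, 34112023 to 34122634, minus strand) had 369 and 382 CPM in WT, 386 and 387 CPM in Mut18 and 399.1 and 398.6 CPM in Mut43. All mutant libraries were above WT, with a log2 fold change of 0.06 (95% interval -0.01 to 0.14) that did not pass the test (adjusted p = 0.167). Exons of Brd2 overlap 360 bp of H2-DMa on the other strand, and reads there cannot be told apart where strand was not used in counting.

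Brd3 (chromosome 2, 27445579 to 27507662, minus strand), the other BET gene of the 9, was lower. It had 129 and 137 CPM in WT, 113 and 112 CPM in Mut18 and 122.2 and 124.5 CPM in Mut43. Mut18 lay lowest, Mut43 between Mut18 and WT, and no 2 lines overlapped. The log2 fold change was -0.18 (SE 0.049, 95% interval -0.28 to -0.07, adjusted p = 0.00602). WT replicate 2 decided this call too, since without it the value was -0.12 with an adjusted p of 0.127.

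Brd9 (chromosome 13, 73937811 to 73960895, plus strand) encodes the bromodomain subunit of the non-canonical BAF (ncBAF) complex. It had 40.8 and 42.2 CPM in WT, 33.1 and 34.4 CPM in Mut18 and 33.1 and 33.6 CPM in Mut43. The mutants were tightly grouped and well below WT. The log2 fold change was -0.31 (SE 0.062, 95% interval -0.44 to -0.18, adjusted p = 0.000356), which is 0.808 of the WT level, the second largest change of the 9 after Hdac8.

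Summed over Brd2 and Brd3, BET mRNA was 66.1 RPKM in WT and 66.2 RPKM in the mutants, while the ratio of Brd2 to Brd3 was 2.61 and 2.68 in WT and 3.01 to 3.25 in the mutants. Brdt, a BET gene outside the 9 that is expressed in testis, was near the limit of detection at 0.471 to 1.69 CPM (log2 fold change -0.21, adjusted p = 0.645).

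**Figure D2:**
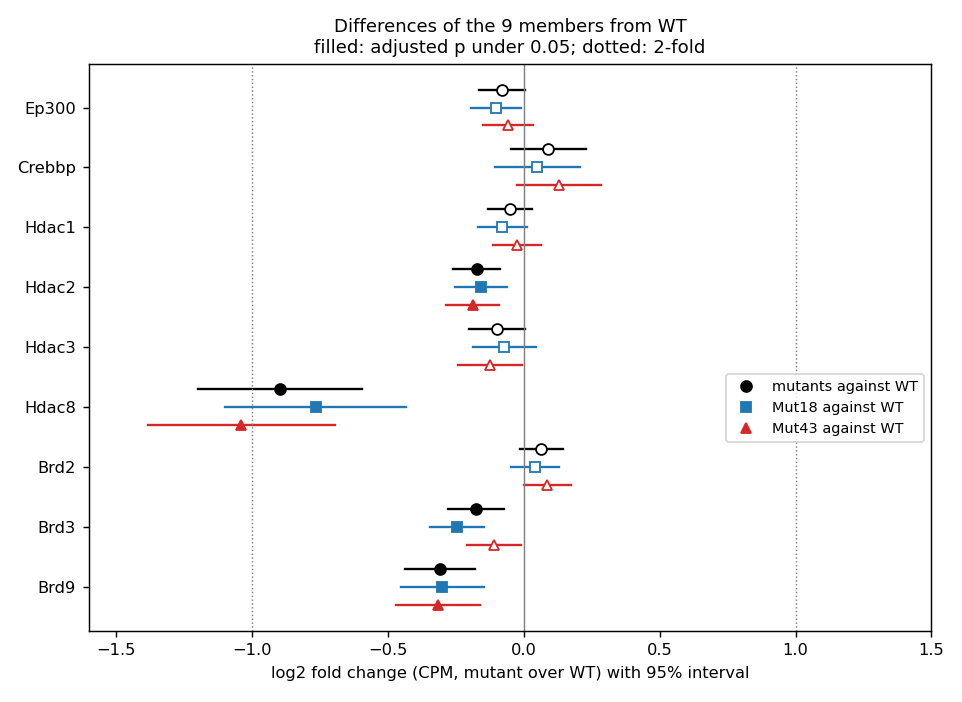
log2 fold change of each of the 9 genes with its 95% interval, for both clones together, Mut18 and Mut43, each against WT. Filled symbols passed an adjusted p under 0.05, dotted lines mark 2-fold, and Hdac8 in Mut43 (-1.04) is the only point beyond them.

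The clones gave similar pictures when each was set against the same WT libraries. In Mut18, 4 of the 9 genes passed the test, all lower (41.3% of tested genes passed, 21.0% lower), and they were Hdac2, Hdac8, Brd3 and Brd9. In Mut43, 3 of the 9 passed, all lower (46.8% of tested genes, 23.9% lower), although Brd2 also passed, as higher, with TMM computed without chromosome 11 (log2 fold change 0.11, adjusted p = 0.0299), and Hdac8 alone was also beyond 2-fold (10.3% of tested genes). Brd3 was the gene that passed in Mut18 (log2 fold change -0.25, adjusted p = 0.000218) and not in Mut43 (-0.11, adjusted p = 0.0675).

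Compared with each other, Mut43 and Mut18 differed in 0 of the 9 genes by edgeR (0.327% of tested genes passed) and in 0 of the 8 to which DESeq2 gave an adjusted p, all but Hdac8. At an unadjusted p under 0.05 there was 1, Brd3 (8.52% of tested genes), which was higher in Mut43 by 0.14 on the log2 scale (95% interval 0.03 to 0.24, adjusted p = 0.376 by edgeR). The difference between the clones in Brd3 is therefore not established by this test.

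Levels of the 9 genes spanned a wide range per kilobase of summed exons, and their order hardly differed between genotypes. In WT, Hdac1 was highest at 91.1 ± 2.75 RPKM (SD, n = 2), followed by Brd2 at 48.0 ± 1.20, Hdac2 at 45.0 ± 1.59, Brd3 at 18.1 ± 0.794, Hdac3 at 17.7 ± 0.728, Ep300 at 13.0 ± 0.0192, Brd9 at 5.97 ± 0.148, Crebbp at 2.81 ± 0.213 and Hdac8 at 1.69 ± 0.118 RPKM. Brd3 and Hdac3 overlapped and cannot be ordered, and the other neighbours did not overlap in the 2 libraries. The order of close genes, such as Brd2 and Hdac2, also depends on the exon lengths used. In the mutants Hdac3 (16.5 RPKM) and Brd3 (16.1 RPKM) again overlapped, and the order of the other genes was the same. Hdac8 ended the order at 0.909 RPKM.

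**Figure D3:**
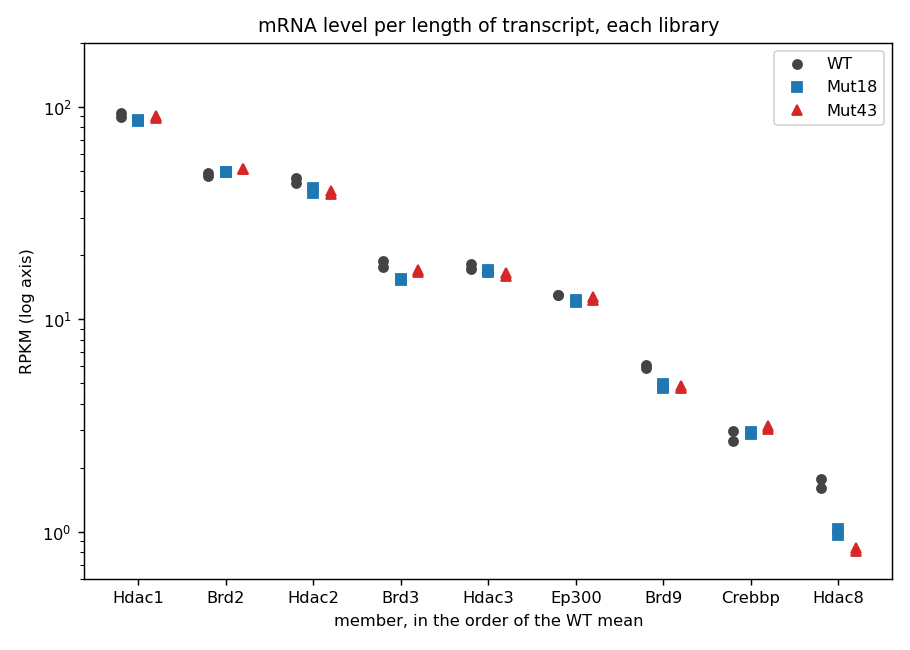
Level of each gene per kilobase of exon (RPKM, log axis) in every library, ordered by the WT mean. Points of 1 gene lie close together compared with the distance from Hdac1 (91.1 RPKM in WT) to Hdac8 (1.69 RPKM in WT).

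The gene outside the 9 whose pattern over the 6 libraries was most like that of each was found by the root mean square difference of centred log2 CPM. For Hdac8, 82 genes came within a difference of 0.1, whereas 1468 to 4379 did so for the other 8 genes, which varied less. The closest genes of those 8 were Iars2 for Ep300, Lonp2 for Crebbp, Doc2a for Hdac1, Trip13 for Hdac2, Ampd2 for Hdac3, Smpd4 for Brd2, Ldha for Brd3 and Rcbtb1 for Brd9.

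Genes that work with the 9 were followed in 11 lists of 104 genes, of which 103 were tested. Of these, 32 were higher in the mutants, 26 were lower, 45 did not pass and none was beyond 2-fold, with a median log2 fold change of 0.00. Chromosome 11 was higher as a whole (median 0.39 over 1182 genes, 67.0% of them higher), and 9 of the 10 listed genes on it were higher. On the other chromosomes 23 listed genes were higher and 25 lower of 93, beside 19.5% and 26.1% of all tested genes there. None of the 9 genes lies on chromosome 11. The counts of each list below are to be read beside the 23.5% of all tested genes that were higher and the 24.5% that were lower.

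The complexes that hold Hdac1 and Hdac2 had members on both sides. In the Sin3 list 5 of 15 genes were higher and 3 lower, with Sap30l on chromosome 11 at 0.67 (adjusted p = 3.10e-06) and the histone chaperone gene Rbbp7 at -0.33 (adjusted p = 4.69e-07). In NuRD 1 of 10 was higher, Gatad2a at 0.22 (adjusted p = 8.04e-05), and 4 were lower, with Mta2 at -0.36 (adjusted p = 2.13e-07). In CoREST 1 of 7 was higher, the lysine demethylase gene Kdm1a at 0.23 (adjusted p = 0.000276), and 2 were lower. Rcor3, which was lower and is named after its value was seen, had the largest change of any listed gene at -0.98 (4.21 and 4.55 CPM in WT, 2.13 to 2.28 CPM in the mutants).

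The partners of Hdac3 all had values above 0. In the NCoR and SMRT list 3 of 5 genes were higher and the log2 fold changes ran from 0.11 to 0.38, with the corepressor gene Ncor1 at 0.36 (adjusted p = 3.68e-07). Of the 3 that passed, Ncor1 and Gps2 lie on chromosome 11, where 67.0% of tested genes were higher, and Gps2 is named after its value was seen. Among the other zinc-dependent deacetylases 2 of 7 were higher and 3 lower, with Hdac6, a mainly cytoplasmic tubulin deacetylase, at 0.25 (adjusted p = 0.000350) and Hdac7 at -0.66 (adjusted p = 2.99e-05). Without WT replicate 1, 3 of these 7 passed, and without Mut18 replicate 1 all 5 genes of the NCoR and SMRT list did. Of the NAD-dependent sirtuins 3 of 7 were higher, with Sirt7 on chromosome 11 at 0.56 (adjusted p = 0.000121), and the other 4 did not pass.

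Partners of the writers were found on both sides too. Of 10 tested partners of p300 and CBP, 2 were higher, with the coactivator gene Ncoa3 at 0.33 (adjusted p = 9.78e-06), and 5 were lower, with Cited2, which encodes a protein that binds p300 and CBP, at -0.71 (adjusted p = 6.38e-08). Cited2 had 82.3 and 79.9 CPM in WT, 56.6 and 51.8 CPM in Mut18 and 45.7 and 44.0 CPM in Mut43, so the lines did not overlap. For acetyl-CoA supply, Acly on chromosome 11, which makes acetyl-CoA from citrate, was higher at 0.51 (adjusted p = 8.32e-10), and the other 2 genes did not pass.

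Other readers of acetylated lysine were split, with 10 of 27 higher and 6 lower, among them Baz2a at 0.46 (adjusted p = 6.70e-09) and Phip at -0.49 (adjusted p = 3.72e-07). Of the ncBAF partners of Brd9, Gltscr1, also called Bicra, fell like Brd9 at -0.33 (adjusted p = 0.00358), 1 of 5 was higher, Gltscr1l at 0.16 (adjusted p = 0.00775), and 2 were lower in all. Of 7 genes of P-TEFb, the kinase that acts downstream of BET proteins, and its regulators, 3 were higher, with the inhibitor gene Hexim1 on chromosome 11 at 0.43 (adjusted p = 6.66e-08), and 1 was lower, Larp7 at -0.14 (adjusted p = 0.00793). Without WT replicate 2, 1 gene passed in each of these last lists, ncBAF and P-TEFb.

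**Figure D4:**
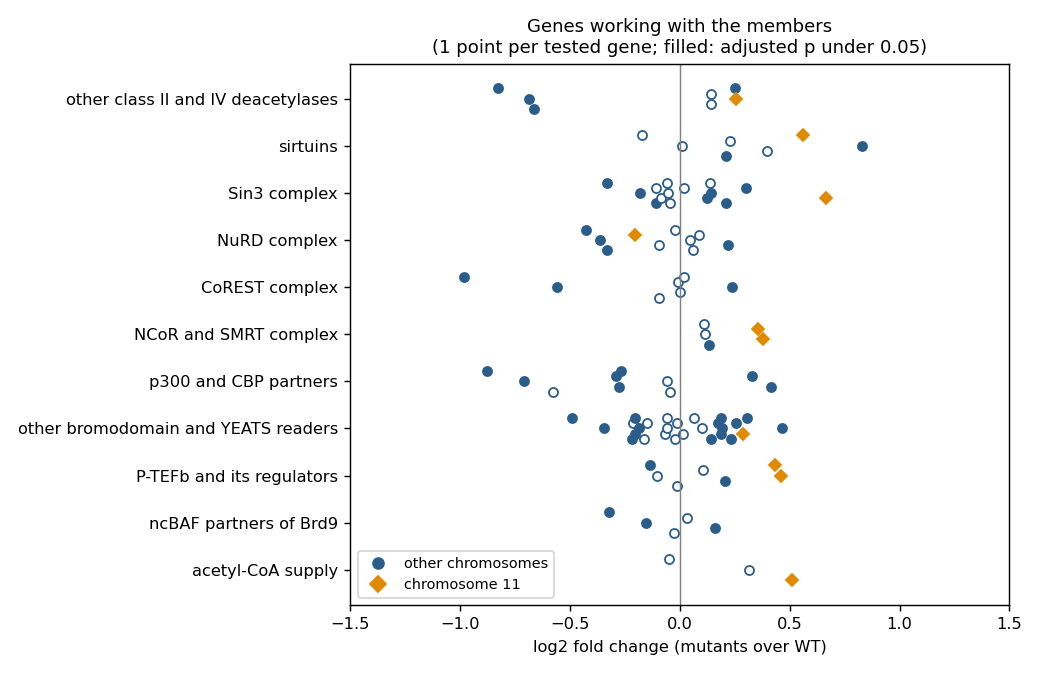
log2 fold change (mutants over WT) of the 103 tested genes that work with the 9, by list. Filled symbols passed an adjusted p under 0.05, diamonds are genes on chromosome 11, and all but 1 of the diamonds lie above 0 while the other chromosomes lie on both sides.

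At the start sites, ATAC-seq peaks of the 9 genes were mostly shared by all libraries. A peak within 500 bp of a GENCODE coding start was listed in all 6 libraries for 7 of the 9 genes, beside 85.2% of 13416 tested genes. The exceptions were Hdac8, described above, and Brd2, with a peak in WT replicate 1 and Mut18 replicate 2 and a fold enrichment over background of 2.07 and 2.63, among the weakest of those libraries. Those are also the libraries with the most peaks listed. A further Brd2 region inside the gene, from 34119132 to 34119664, was listed in all 6 libraries. It lies within 500 bp of a RefSeq start of Brd2, at 34119900, which is not among the GENCODE coding starts. Brd2, the reader gene with the highest mRNA, had no constant peak within 500 bp of its GENCODE coding starts.

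Within 10 kb of the 9 genes, peaks merged into 40 regions. Of these, 26 were listed in all 6 libraries, 14 in a mixture of libraries, 0 in both WT libraries and no mutant, and 0 in all 4 mutants and no WT library. The peak lists hold no read counts, so a peak that is not listed is one that missed the caller's threshold, and no change of accessibility was tested.

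The height of the strongest promoter peak, as fold enrichment over background, overlapped between WT and mutants for 5 of the 7 genes with a peak in all 6 libraries. For Ep300 it was 5.59 and 5.95 in WT and 6.58 to 6.98 in the mutants, and for Hdac1 6.23 and 6.82 in WT and 7.25 to 8.06 in the mutants. Neither Ep300 nor Hdac1 passed the mRNA test. All 4 mutant libraries exceeded both WT libraries in 17.8% of the 11436 tested genes with such peaks and lay below both in 4.05%, and whether enrichments are comparable between libraries was not tested.

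The Ep300 start also differed in the shape of its peaks, which was noticed after the values were seen. In WT it lay in 1 peak of 1475 and 1538 bp. In each mutant library there were 2 peaks instead, of 565 to 680 bp and 489 to 650 bp, over the same stretch. Of 48987 regions listed in all 6 libraries, 0.470% had 1 peak in both WT libraries and 2 or more in every mutant library, and 0.0306% the reverse. These shares are over regions of any width, and regions as wide as that of Ep300 were not counted apart.

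**Figure D5:**
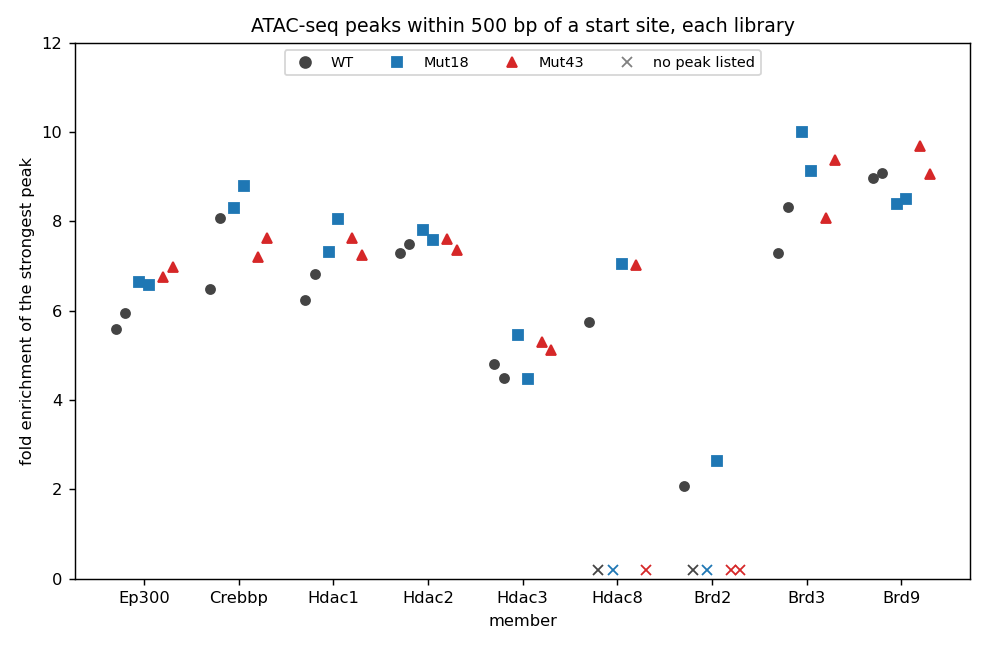
Fold enrichment over background of the strongest ATAC-seq peak within 500 bp of a start site, for each gene and library. Crosses at the bottom mark libraries with no peak listed, which occur for Hdac8 and Brd2. Among the genes with a peak in every library, Ep300 and Hdac1 are those in which WT and mutant points do not overlap.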

How the data were processed

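The mRNA-seq and ATAC-seq libraries of WT, Mut18 and Mut43 were used (2 of each per line), grouped by their titles. The ChIP-seq samples were not analysed here. The authors deposited the mRNA-seq data as raw read counts per gene (whole numbers, mm10). STAR is named in the submitters' processing notes, and the counting program, strand setting and annotation are not given in the sources used here. For ATAC-seq the authors deposited peaks for each library, with a fold enrichment (a ratio) and a -log10 q of at least 6.00; Bowtie2 2.3.4.2 and MACS2 are named in the notes. The peak lists hold no depth, and the study's own table of depths was not used here.

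Counts were tested in R 4.3.3 with edgeR 4.0.16 (filter at a minimum count of 10 and total of 15, TMM, quasi-likelihood F-test, Benjamini-Hochberg adjustment); clones were fitted as 3 groups. DESeq2 1.42.0, other scalings and filters, a replicate block and omission of each library were alternatives. On simulated counts 186 of 196 changed genes among 13844 were recovered with 12 other calls. RPKM used summed exons of GENCODE on GRCm38, the build of mm10; 15618 symbols matched directly and 478 by an older symbol. Peaks were handled in Python 3.11.15.

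The 9 genes, the lists and the rule for named genes were chosen with earlier results of these data known. Named were the 9 genes, Brdt, H3f3a, H3f3b, the gene closest in pattern to each of the 9, and the gene of lowest p in each direction per list; some of these are not reported here. Libraries of a line differed by a chi-square of 1.78 to 3.19 per gene, beyond counting error, and were kept as separate replicates. P-values cover the spread between these libraries, 2 in WT, and not the spread between independently derived lines.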

Additional observations from a re-analysis of the deposited data

How the results depend on the processing

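The count of 4 of the 9 genes between WT and the mutants was 0 when a change beyond 2-fold was also required, and 2 to 4 with each library left out in turn. The 2 came from leaving out WT replicate 2, where Hdac2 and Brd3 no longer passed; WT was then 1 library, assumed to vary like the other groups. Leaving out a library gave 3 to 4 genes for Mut18, in which Hdac2 no longer passed without WT replicate 2 or without Mut18 replicate 1 (adjusted p = 0.127 and 0.109), and 3 to 4 for Mut43, in which Brd3 passed without WT replicate 1 (adjusted p = 0.0476). Upper-quartile scaling gave 5 for Mut43, where Brd3 and Hdac3 also passed, and 5 for Mut18 and 5 for both clones together, where Ep300 also passed (adjusted p = 0.0453 and 0.0466). TMM without chromosome 11 gave 4 for Mut43, where Brd2 passed as higher (log2 fold change 0.11, adjusted p = 0.0299). For both clones together against WT, Hdac8 stayed between -0.96 and -0.82 and Brd9 between -0.33 and -0.27 under every alternative run. Single clones went beyond these limits, with Hdac8 at -1.10 in Mut43 without WT replicate 1 and at -0.74 in Mut18 with TMM without chromosome 11. Leaving out each library moved the calls by over 1.5 times in the lists of the other zinc-dependent deacetylases (3 to 5), P-TEFb (1 to 5), ncBAF (1 to 3) and NCoR and SMRT (2 to 5); the lowest counts of the first and of the next 2 came without WT replicate 1 and WT replicate 2, respectively, and the highest of the last without Mut18 replicate 1. The other readers had 11 to 16 calls and NuRD 4 to 7. With the replicate number as a block the counts were 4, 4, 3 and 0, and 6604 genes passed between WT and the mutants instead of 6749, while deviations of same-numbered libraries had correlations of -0.0136, 0.0252 and -0.00171, so the numbers did not pair the libraries. Other scalings moved the median of all genes to -0.02 to 0.02 and the lower share of called genes to 46.4% to 54.8%, beside 51.0% in the reported fit. Changes close to 0 changed sign. That of Hdac1 in Mut43 was 0.00085 with TMM without chromosome 11 and -0.052 to 0.014 with each library left out, that of Crebbp in Mut18 -0.018 to 0.13, and those of Hdac2 and Brd9 between the clones -0.068 to 0.0091 and -0.043 to 0.012. Of 467 values of single genes under alternatives, 452 kept direction and side of the threshold, 6 newly passed, 4 no longer passed and 5 changed sign. The cause of these moves was not tested.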
